A study of Mus musculus with 15 samples.

Results

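Connexins and pannexins were examined in cultured mouse articular chondrocytes in which tankyrase had been knocked down or inhibited. The genes described are 6 of the 23 connexin and pannexin genes listed in both count tables, namely Gja1, Gjb2, Gjc1, Gjc3, Panx1 and Panx3, out of 24134 genes in each table. They were chosen from their own changes in these same comparisons, as family members seen to move in opposite directions, so their values under knockdown and under each inhibitor are given as a description, with no p-value. Per kilobase of exon, Gja1 had the highest level in every group and Panx3 the next. Gjc3 and Panx3 were higher in every knockdown library and every inhibitor library than in the matching controls. Gja1 and Gjb2 were lower in every inhibitor library than in every DMSO library, and Panx1 differed little under the inhibitors.

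Connexins are the subunits of gap junctions: a ring of them forms a hemichannel, and hemichannels of neighbouring cells dock into a channel that passes ions and small metabolites, while an undocked hemichannel can open to the outside. Pannexins have the same membrane topology but form channels in the plasma membrane that are best known for releasing ATP, and they rarely build junctions between cells. Gja1 encodes connexin 43, the main connexin of chondrocytes and bone cells, Gjb2 connexin 26, the connexin of the cochlea and skin whose human counterpart is mutated in hereditary deafness, Gjc1 connexin 45 of the heart's conduction system, and Gjc3 connexin 29 of myelinating glia. Panx1 is the widely expressed pannexin, and Panx3 is the pannexin of skin, osteoblasts and prehypertrophic cartilage. Tankyrases, encoded by Tnks and Tnks2, are enzymes that attach chains of ADP-ribose to other proteins, among them Axin of the Wnt pathway. XAV939 occupies the nicotinamide pocket of their catalytic domain, and IWR-1 the neighbouring adenosine pocket.

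RNA was sequenced from 15 libraries of primary articular chondrocytes at passage 0, isolated from the femoral condyles and tibial plateaus of ICR mice 4 to 5 days old. The siRNA set held 3 libraries of cells given control siRNA (siCtrl) and 3 of cells given siRNAs against Tnks and Tnks2 together (siTnks/2), for a time that the sources used here do not state. The drug set held 3 libraries each of cells kept for 108 h in the vehicle DMSO, in 10 μM XAV939 or in 10 μM IWR-1, so each dose and time was matched between the inhibitors. The labels number the replicates and the study's methods call them biological, but the animals or cultures behind each number are not described. Libraries held 26857070 to 36615194 counts each. Tnks fell in the knockdown by 1.81 on the log2 scale (adjusted p = 0.00569) and Tnks2 by 1.10 (adjusted p = 0.00384), with counts-per-million (CPM) levels of Tnks at 12.7 to 24.0 against 58.4 to 70.1 and of Tnks2 at 44.9 to 61.2 against 115 to 119.6. All 9 chondrocyte markers were found above 1 CPM in every group, while the 5 endothelial markers together reached at most 7.77 CPM, the 5 leukocyte markers 6.45 CPM and the 4 epithelial markers 0.902 CPM in any library. Sums of the chondrocyte markers differed strongly between groups, and between the control cells of the sets as well. They ranged over 25835 to 35088 CPM in DMSO, 36082 to 54904 in XAV939 and 86680 to 110940 in IWR-1, and over 80747 to 109690 in siCtrl and 117640 to 195730 in siTnks/2. Their part in the values below was not tested. In bulk RNA, fewer cells of a type and less RNA per cell cannot be told apart.

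The promoters of the genes that differed are shown first, because Gja1 and Gjb2 lay on the opposite side from Gjc3. Of the 6 genes, 4 matched the RefSeq promoter table (build GRCm38.p6), which gives 250 bases before and 50 after the annotated start. Gjc1 and Panx3 are named only. In the sequences, written 5' to 3' on the gene's own strand, capitals mark every match to a motif searched on both strands: AP-1 (TGANTCA), TCF/LEF (CTTTGA), SOX (ACAAAG or ACAATG), RUNX (TGTGGT), the GC box (GGGCGG) and the TATA box (TATAAA). No search motif overlapped another in these windows.
Gja1, chr10:56377050-56377349, plus strand: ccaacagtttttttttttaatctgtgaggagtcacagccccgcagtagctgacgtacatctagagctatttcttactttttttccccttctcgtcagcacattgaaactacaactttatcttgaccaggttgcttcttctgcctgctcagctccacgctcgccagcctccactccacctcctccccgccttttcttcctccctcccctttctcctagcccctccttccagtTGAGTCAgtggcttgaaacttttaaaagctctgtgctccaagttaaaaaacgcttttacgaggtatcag
Gjb2, chr14:57104653-57104952, minus strand: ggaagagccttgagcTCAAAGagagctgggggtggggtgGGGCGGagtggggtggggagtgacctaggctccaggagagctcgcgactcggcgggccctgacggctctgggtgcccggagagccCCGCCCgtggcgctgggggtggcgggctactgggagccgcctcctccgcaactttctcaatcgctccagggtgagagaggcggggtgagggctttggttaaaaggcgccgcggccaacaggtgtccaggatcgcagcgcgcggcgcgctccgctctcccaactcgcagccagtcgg
Gjc3, chr5:137963049-137963348, minus strand: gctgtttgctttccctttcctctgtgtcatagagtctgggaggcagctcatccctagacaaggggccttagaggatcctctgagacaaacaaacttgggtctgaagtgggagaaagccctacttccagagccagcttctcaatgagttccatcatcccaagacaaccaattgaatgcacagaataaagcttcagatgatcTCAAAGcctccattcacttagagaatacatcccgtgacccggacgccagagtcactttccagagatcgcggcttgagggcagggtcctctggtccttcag

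The Gja1 window held the AP-1 letters TGAGTCA at -19 to -13 from the start, a motif found in 7.81% of all promoters in the table. The Gjc3 window held TCAAAG, the TCF/LEF letters on the opposite strand, at -50 to -45, and the Gjb2 window held it at -235 to -230. That motif was in 5257 of the 32851 promoters. Gjb2 also had GC boxes at -211 and -126, a motif of 35.7% of promoters, and its window was 70.0% G and C against a median of 52.7% over the table, with Gja1 at 47.7%, Gjc3 at 50.7% and Panx1 at 61.3%. The Panx1 window (chr9:15045429-15045728, minus strand) had RUNX letters at -243 and at -98, a motif of 16.8% of promoters. SOX letters, present in 28.6% of promoters, and the TATA box, present in 13.6%, had no match in the 4 windows, which says only that these letters are not there.

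Gja1, connexin 43 (gene ID 14609, GRCm38 chromosome 10, 56377300 to 56390419), was the most abundant of the genes. Its level was 944, 938 and 1019.9 CPM in the DMSO libraries. With XAV939 it was 682, 583 and 821 CPM, and with IWR-1 it was 540, 501 and 559 CPM. Every inhibitor library thus lay below every DMSO library, and the IWR-1 libraries also lay below every XAV939 library. The fitted log2 fold change was -0.48 (SE 0.13) for XAV939 and -0.86 (SE 0.13) for IWR-1. Under the siRNAs Gja1 differed little. It was at 526, 526 and 606 CPM in siCtrl and at 528, 503 and 597 CPM in siTnks/2, which overlap, with a log2 fold change of -0.03 (95% interval -0.25 to 0.20). The 95% interval was -0.77 to -0.18 with XAV939 and -1.15 to -0.565 with IWR-1. The 2 sets were cultured and normalized apart, and the difference between them was not tested.

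Gjb2, connexin 26 (gene ID 14619, chromosome 14, 57098602 to 57104702), was a low-level gene that lost most of its counts under the inhibitors. The DMSO libraries had 1.71, 1.48 and 1.45 CPM, from 46 to 56 counts each. The XAV939 libraries had 0.323, 0.413 and 0.401 CPM (11 to 13 counts), and the IWR-1 libraries 0.610, 0.449 and 0.609 CPM (14 to 21 counts). No library of either inhibitor reached the DMSO range. The log2 fold change was -1.88 (SE 0.24) with XAV939, or 3.67-fold lower, and -1.38 (SE 0.22) with IWR-1, or 2.60-fold lower. In the siRNA set the gene had 5 to 17 counts a library and did not pass the filter on low counts. Its levels there, 0.280, 0.628 and 0.306 CPM in siCtrl and 0.278, 0.392 and 0.163 CPM in siTnks/2, overlapped. The locus overlaps a long noncoding RNA gene, Gm32912, and the strand setting of the counting is not given in the sources used here.

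Gjc1, connexin 45 (gene ID 14615, chromosome 11, 102799477 to 102819686), varied little in the drug set. It was at 9.82, 10.2 and 9.93 CPM in DMSO, at 10.4, 9.27 and 12.9 CPM with XAV939 and at 8.49, 8.28 and 10.3 CPM with IWR-1. The 3 groups overlapped, and the log2 fold changes were 0.12 (95% interval -0.21 to 0.45) and -0.15 (-0.47 to 0.18). In the siRNA set it was at 6.69, 5.84 and 5.39 CPM in siCtrl and at 4.96, 2.07 and 4.96 CPM in siTnks/2. The knockdown libraries were all below the controls, with replicate 2 far below the other two. The log2 fold change of -0.57 had a wide 95% interval of -1.32 to 0.18.

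Gjc3, connexin 29 (gene ID 118446, chromosome 5, 137950992 to 137963098), had the largest fold difference of the 6 genes with IWR-1 and in the knockdown. In DMSO it was barely present, with 0.457, 1.43 and 0.911 CPM from 15, 49 and 29 counts. With XAV939 it was at 2.86, 2.70 and 1.85 CPM, and with IWR-1 at 13.3, 11.6 and 8.44 CPM. The 3 groups did not overlap, in the order DMSO, XAV939, IWR-1. The log2 fold change was 1.35 (SE 0.35), or 2.54-fold higher, with XAV939 and 3.49 (SE 0.34), or 11.2-fold higher, with IWR-1. The DMSO counts were low and uneven, and without DMSO replicate 1, the lowest, the log2 fold change for XAV939 was 1.04. In the siRNA set Gjc3 started from a higher level, 9.02, 5.62 and 9.40 CPM in siCtrl, and was at 17.8, 12.3 and 16.4 CPM in siTnks/2, a log2 fold change of 0.95 (SE 0.22) with no overlap.

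Because connexin 29 is best known from Schwann cells and oligodendrocytes, glial markers were read beside it. Of 5 markers, Sox10, Mbp and Mag among them, 3 were under 1 CPM in every group, and Sox10, which defines these glia, had no count in any XAV939 or IWR-1 library. The summed level of the 5 was 3.06 to 3.51 CPM in DMSO, 3.39 to 4.12 in XAV939, 5.14 to 5.96 in IWR-1, 4.41 to 5.17 in siCtrl and 4.99 to 5.17 in siTnks/2. The part of the glial signal in the Gjc3 values was not tested.

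Panx3 (gene ID 208098, chromosome 9, 37659902 to 37669222) was second only to Gja1 in level and was higher with each treatment. It was at 29.4, 35.9 and 24.2 CPM in DMSO, at 119, 110.3 and 94.1 CPM with XAV939 and at 178, 183 and 154 CPM with IWR-1. As for Gjc3, the 3 groups did not overlap and were in the order DMSO, XAV939, IWR-1. The log2 fold change was 1.85 (SE 0.15), or 3.61-fold higher, with XAV939 and 2.52 (SE 0.16), or 5.75-fold higher, with IWR-1. In the siRNA set it was at 93.1, 73.4 and 76.7 CPM in siCtrl and at 148, 99.1 and 143 CPM in siTnks/2, without overlap, a log2 fold change of 0.68 (SE 0.17).

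Panx3 is also a gene of osteoblasts, and the summed level of 5 osteoblast or osteocyte markers moved the same way. It was 4.33 to 6.87 CPM in DMSO, 17.3 to 22.9 in XAV939 and 19.1 to 24.1 in IWR-1. In the siRNA set it was 19.1 to 36.0 in siCtrl and 47.9 to 114 in siTnks/2. Among the 5, Dmp1 did not follow the sum. Its mean was 0.131 CPM in DMSO, 0.0398 with XAV939 and 0.0290 with IWR-1, near the floor, with every inhibitor library below every DMSO library. Its siRNA groups overlapped, at means of 0.666 CPM in siCtrl and 0.722 in siTnks/2. The part of osteoblasts or osteocytes in the Panx3 values was not tested. Fibroblast and synovial markers, 6 in all, went the other way in the drug set, as Gja1 and Gjb2 did: their sum was 8907 to 11198 CPM in DMSO, 4021 to 5358 in XAV939 and 3017 to 4874 in IWR-1. These sums overlapped in the siRNA set, at 3264 to 5415 CPM in siCtrl and 1512 to 4335 in siTnks/2. The 6 hypertrophic markers summed to 18456 to 24307 CPM in DMSO, 17683 to 21480 in XAV939 and 6427 to 7128 in IWR-1, and to 2419 to 3972 in siCtrl and 3509 to 7254 in siTnks/2. With IWR-1 the members of that list split: 3 rose (Col10a1 by 3.07, Ihh by 2.41 and Alpl by 0.66 on the log2 scale) and 2 fell (Mmp13 by 1.96 and Spp1 by 1.43), with adjusted p of 0.00542 or less. The part of either list in these values was not tested.

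Panx1 (gene ID 55991, chromosome 9, 15005785 to 15045478) was nearly level in the drug set, at 11.4, 9.05 and 8.52 CPM in DMSO, at 12.2, 7.99 and 9.97 CPM with XAV939 and at 10.3, 8.35 and 8.73 CPM with IWR-1. The groups overlapped and the log2 fold changes were 0.06 (95% interval -0.33 to 0.45) and -0.08 (-0.47 to 0.31). In the siRNA set it was at 8.15, 5.10 and 6.25 CPM in siCtrl and at 11.6, 6.92 and 9.30 CPM in siTnks/2. The groups overlapped, but within each replicate number the knockdown library was the higher. The fitted log2 difference was 0.50 (SE 0.24), and also 0.50 with the replicate number kept as a block.

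**Figure D1:**
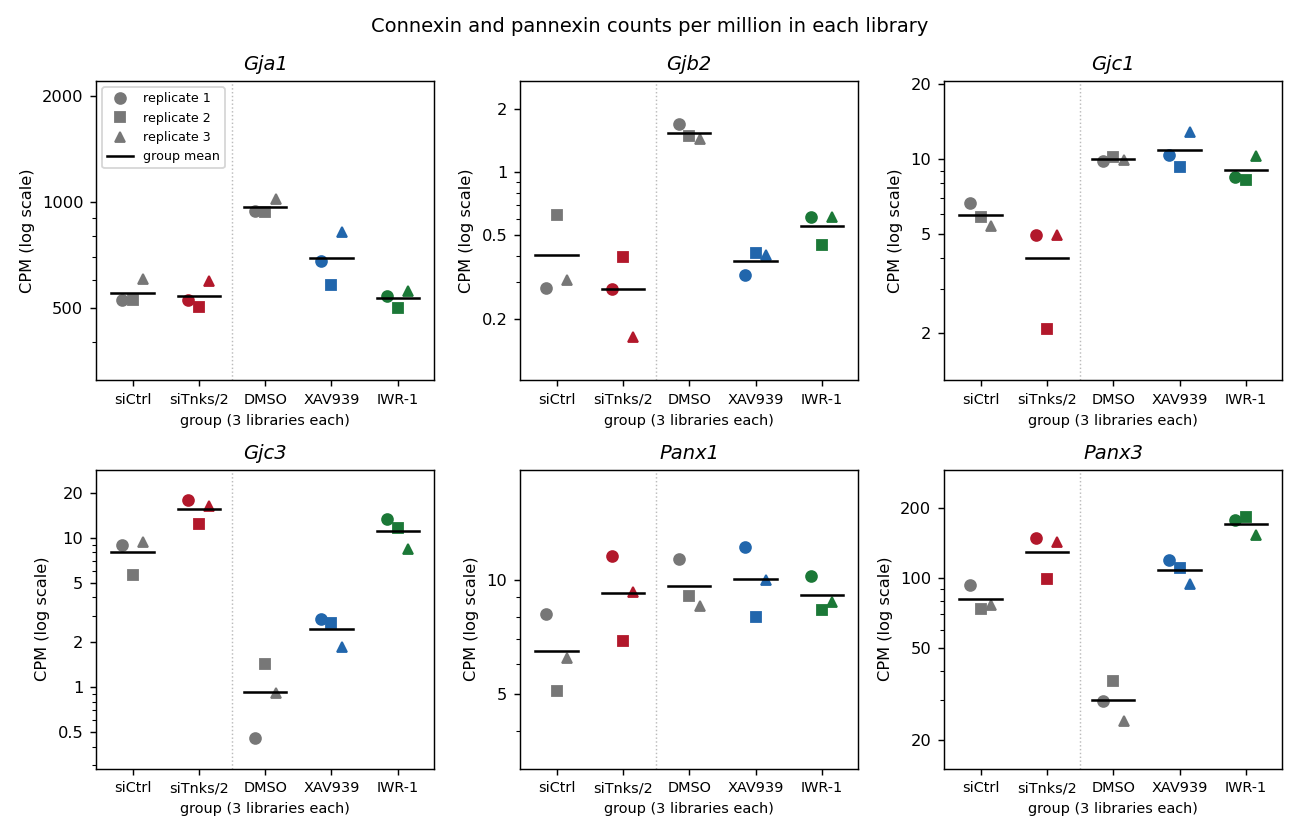
CPM (log scale) of the 6 genes in each of the 15 libraries, by group; symbols are replicates and black lines group means, and the dotted line separates the siRNA set from the drug set. Gjc3 and Panx3 lie higher in every treated library than in the matching controls, Gja1 and Gjb2 lie lower in every inhibitor library than in DMSO, and Panx1 overlaps throughout.

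**Figure D2:**
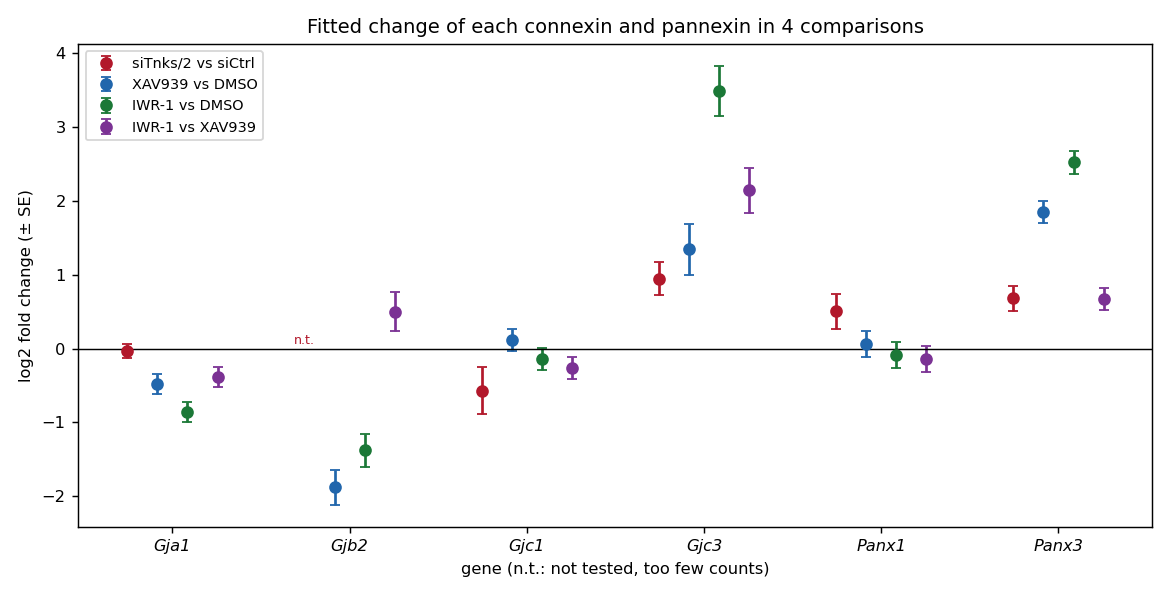
Log2 fold change of each gene with its standard error, in the knockdown against siCtrl, each inhibitor against DMSO and IWR-1 against XAV939. Gjc3 and Panx3 are above 0 in all 4 comparisons and Gja1 is at or below 0 in all 4, while Gjb2 was not tested in the siRNA set.

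Counted against a threshold of 0.05 on the adjusted p over all genes, from edgeR's quasi-likelihood test, 2 of the 5 genes tested passed in the knockdown (Gjc3 and Panx3, higher), where 18.0% of all 13672 genes tested passed. With XAV939 4 of 6 passed (Gjc3 and Panx3 higher, Gja1 and Gjb2 lower), against 17.4% of 13873 genes, and with IWR-1 the same 4, against 36.4%. The genes were chosen on these contrasts, so nothing is read from these shares. Groups that did not overlap in CPM were found for 3 of 5 genes in the knockdown, against 43.8% of genes tested, for 4 of 6 with XAV939, against 33.2%, and for 4 of 6 with IWR-1, against 51.1%. Both knockdown calls held without siTnks/2 replicate 2, but none of the 5 passed when any single siCtrl library, or siTnks/2 replicate 1 or 3, was left out, and with the replicate number as a block Panx1 passed too, making 3. For XAV939, 2 passed (Gjb2 and Panx3) without DMSO replicate 1, XAV939 replicate 1 or XAV939 replicate 2, and Gja1 also dropped out without DMSO replicate 2 or 3, without IWR-1 replicate 2 and in a fit of only the XAV939 and DMSO libraries.

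IWR-1 and XAV939, given at the same dose for the same time, form the 1 pair of compounds that can be compared directly. Both are read against the same DMSO libraries above, so only the direct difference is given here, as a description, because the same libraries entered the choice of genes. Gjc3 was 4.42-fold higher with IWR-1 than with XAV939, a log2 difference of 2.14 (95% interval 1.47 to 2.82), and Panx3 was 1.59-fold higher, a log2 difference of 0.67 (0.34 to 0.999). Gja1 was lower with IWR-1, by a log2 difference of -0.38 (-0.67 to -0.09). For Gjb2, lower than DMSO with each inhibitor, the IWR-1 libraries all lay above the XAV939 libraries, with a log2 difference of 0.50, though its interval of -0.08 to 1.08 includes 0. Gjc1 (-0.26, interval -0.59 to 0.07) and Panx1 (-0.14, interval -0.54 to 0.25) overlapped between the inhibitors, and differences within those intervals cannot be set aside. Of the 6 genes, 2 (Gjc3 and Panx3) passed the threshold, against 17.6% of all genes, and 4 did not overlap, against 37.6%. Without IWR-1 replicate 2, Gjc3 alone passed, and Gja1 passed as well in DESeq2, with the replicate block or without XAV939 replicate 2.

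Levels can be compared between genes only per length, and here CPM was divided by the kilobases of each gene's exons in the GENCODE annotation. On that scale Gja1 was highest in every group and Panx3 next. In DMSO, Gja1 stood at 94.3 ± 4.45 CPM per kilobase (SD, n = 3) and Panx3 at 8.69 ± 1.71, followed by Gjc1 at 2.00 ± 0.0441, Panx1 at 1.600 ± 0.252, Gjb2 at 0.643 ± 0.0588 and Gjc3 last at 0.214 ± 0.111. None of these neighbours overlapped. With XAV939, Panx3 was at 31.4 ± 3.72 against 67.8 ± 11.6 for Gja1, and Gjb2 had dropped to last place at 0.158 ± 0.0202, below Gjc3 at 0.567 ± 0.124. With IWR-1, Gja1 at 52.0 ± 2.88 and Panx3 at 50.05 ± 4.54 overlapped. Gjc3 came next at 2.56 ± 0.571, overlapping Gjc1 at 1.80 ± 0.224, which in turn overlapped Panx1 at 1.51 ± 0.168.

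The near equality of Gja1 and Panx3 with IWR-1 depended on the length used. The exons of all Gja1 transcripts together cover 10257 bases, but its longest transcript is 3889 bases, and with the longest transcripts as lengths Gja1 was at 137 ± 7.60 and Panx3 at 67.9 ± 6.16 in the IWR-1 libraries, without overlap. The rank of Gja1 first and Panx3 next held on both lengths in all 5 groups. In the siRNA set the order was Gja1, Panx3, Gjc3, Gjc1, Panx1 and Gjb2 in siCtrl, where Gjc3 overlapped Gjc1 and Gjc1 overlapped Panx1. In siTnks/2, Panx1 at 1.54 ± 0.385 lay above Gjc1 at 0.799 ± 0.334, though these overlapped on the longest transcripts.

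Gja1 made up 94.6% to 96.1% of the summed per-kilobase level of all connexins in the DMSO libraries and 89.8% to 91.8% in the IWR-1 libraries. The share of Gjc3 was 0.108% to 0.339% in DMSO, 0.503% to 1.01% with XAV939 and 3.26% to 5.24% with IWR-1, and 2.33% to 3.63% in siCtrl and 5.29% to 7.01% in siTnks/2. On the longest transcripts these Gjc3 shares were smaller, 0.0460% to 0.144% in DMSO and 1.41% to 2.29% with IWR-1. Among pannexins, Panx3 held 75.0% to 82.0% of the level in DMSO, 91.6% to 92.4% with XAV939 and 94.7% to 95.2% with IWR-1. Its share was 92.9% to 93.5% in siCtrl and 89.1% to 93.9% in siTnks/2, which overlap. The ratio of Panx3 to Panx1 was thus 4.54 to 6.97 in DMSO, 16.6 to 24.2 with XAV939 and 30.5 to 38.5 with IWR-1, and 20.1 to 25.3 in siCtrl and 22.5 to 26.9 in siTnks/2.

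**Figure D3:**
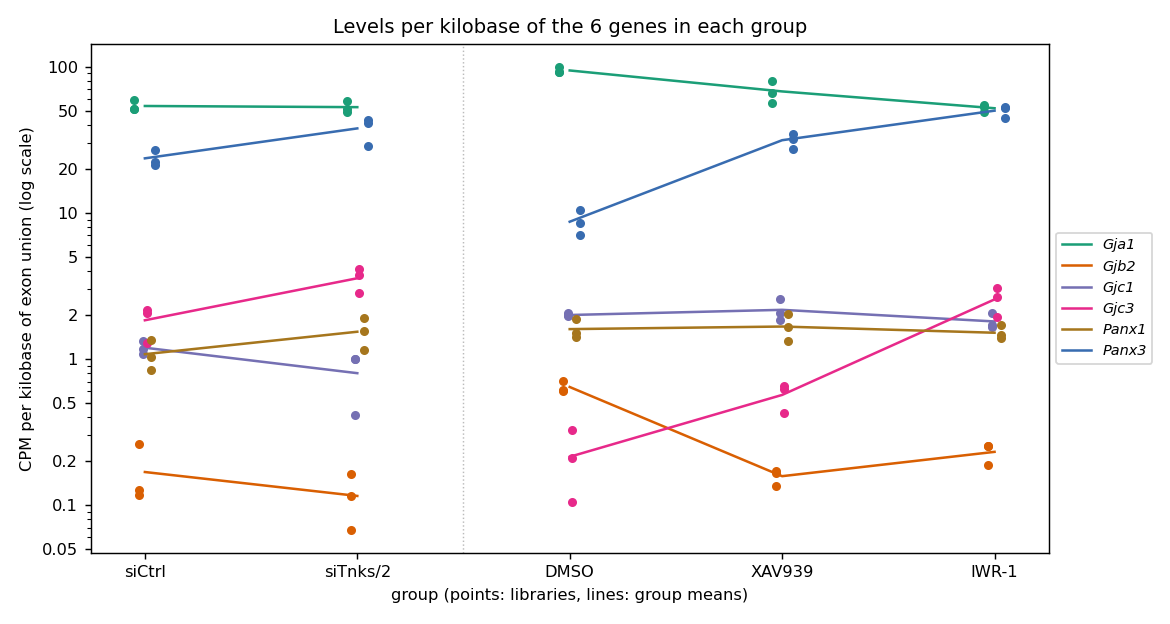
CPM per kilobase of exon (log scale) for the 6 genes in the 5 groups; points are libraries and lines join group means within each set. From DMSO through XAV939 to IWR-1, Gja1 is lower and Panx3 higher at each step until they overlap on this length, and Gjc3 is last in DMSO and next after Panx3 with IWR-1.

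The controls of the sets differed in these genes as well. Gjc3 was at 8.01 ± 2.08 CPM (SD, n = 3) in siCtrl and at 0.932 ± 0.485 in DMSO, Panx3 at 81.1 ± 10.5 and 29.9 ± 5.88, and Gja1 at 553 ± 45.9 and 967 ± 45.6. The IWR-1 cells had 11.1 ± 2.49, 172 ± 15.6 and 533 ± 29.6 CPM in the same order. The tables were normalized separately and differ in transfection and possibly in time, so these levels are set side by side without a test.

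The other 17 connexin and pannexin genes were mostly silent. Of these, 5 passed the count filter in the siRNA set and 3 in the drug set. The threshold was passed by 1 of 5 in the knockdown, 0 of 3 with XAV939 and 1 of 3 with IWR-1, against 18.0%, 17.4% and 36.4% of all genes, so nothing is read from these counts about the family. Panx2, a pannexin of neurons, was the one that rose in the knockdown, by 1.33 on the log2 scale (SE 0.30, adjusted p = 0.0259), from 2.35 ± 0.441 to 5.98 ± 2.28 CPM, so that all 3 pannexins had positive fold changes there. That call was lost without any single siCtrl library or siTnks/2 replicate 1. Under the inhibitors Panx2 had log2 fold changes of 0.34 (SE 0.24) and 0.48 (SE 0.24) and did not pass. Gjb5, connexin 31.1 of skin and placenta, fell by 1.04 on the log2 scale with IWR-1 (SE 0.29, adjusted p = 0.0126), from 1.32 ± 0.360 to 0.617 ± 0.202 CPM. With XAV939 none of the 3 genes passed in edgeR, at an unadjusted p under 0.05 or in DESeq2, and between the inhibitors none passed in edgeR or DESeq2, with 1 (Gjb5) at an unadjusted p under 0.05. Gjb5 was lower with IWR-1 than with XAV939 under the replicate block, and also without IWR-1 replicate 2 or DMSO replicate 3. Gjd2 and Gjd4 had no count in any library.

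Gap junction plaques are anchored and turned over by scaffold, adhesion and kinase proteins, for which 16 genes were listed and 15 tested. With XAV939 5 of the 15 fell and none rose, against 17.4% of all genes called, and with IWR-1 the same 5 fell, against 36.4%. These shares count both directions. Of all 13873 genes tested, 1366 were called lower with XAV939 and 2799 with IWR-1. Among them were Cav1 (caveolin 1, of membrane caveolae), with a log2 fold change of -1.41 (SE 0.18) with XAV939 and -1.03 (SE 0.18) with IWR-1, and Cdh2 (N-cadherin), with -1.18 (SE 0.16) and -1.39 (SE 0.16). Tjp1, encoding the ZO-1 scaffold that binds the tail of connexin 43, changed by -0.79 (SE 0.17) and -0.81 (SE 0.17). Dbn1 (drebrin, an actin-binding partner of connexin 43) changed by -0.73 (SE 0.15) and -1.41 (SE 0.15), and was lower with IWR-1 than with XAV939 (log2 difference -0.67, adjusted p = 0.0118). Adjusted p for these ranged from 0.000593 to 0.00886 with XAV939 and from 5.5e-05 to 0.00307 with IWR-1, in edgeR's quasi-likelihood test. Over the 15 partners the median log2 change was -0.22 with XAV939 and -0.28 with IWR-1, where the medians of all genes tested were 0.02 and 0.01. A shift of the list was not tested, so nothing is read from these counts and medians about the partners as a set.

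In the knockdown 3 partners fell and 1 rose, against 18.0% of all genes called. Tjp1 fell by 0.68 on the log2 scale (SE 0.13, adjusted p = 0.0162), Cav1 by 1.68 (SE 0.46, adjusted p = 0.0459) and Mapk3, the kinase ERK1, by 0.32 (SE 0.08, adjusted p = 0.0308). Ctnnb1 (β-catenin) rose by 0.24 (SE 0.07, adjusted p = 0.0484). Tjp1 and Cav1 were thus lower in all 3 treatments, while Gja1 itself was level in the knockdown. None of the 15 passed in edgeR without any single siCtrl library or siTnks/2 replicate 1, 2 (Tjp1 and Cav1) passed without siTnks/2 replicate 3, and with the replicate block 7 passed, 6 of them lower. With that block, 11 passed with IWR-1 against DMSO. Between the inhibitors Mapk3 was lower with IWR-1 too (log2 difference -0.44, adjusted p = 0.0304), but Dbn1 alone passed without IWR-1 replicate 1, 2 or 3 or without XAV939 replicate 1 or 2, while 4 passed without XAV939 replicate 3 or with the replicate block.

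Pannexin channels and connexin hemichannels release ATP, which acts on P2 receptors, is cut to adenosine by ectoenzymes and as adenosine acts on Adora receptors. For this route and its enzyme families 25 genes were listed, so not every one need act on ATP or adenosine. In the knockdown 9 of the 24 tested rose and 1 fell, against 18.0% of all genes called. Adora1, the adenosine A1 receptor, rose by 1.82 on the log2 scale (SE 0.34, adjusted p = 0.0133), from a low mean of 0.444 CPM to 1.74 CPM. P2ry2, a receptor for ATP and UTP, rose by 1.18 (SE 0.20, adjusted p = 0.0121). Enpp2 (autotaxin, a secreted enzyme of the ENPP family) rose by 1.68 (SE 0.08, adjusted p = 0.000462), and P2ry1, an ADP receptor, by 0.80 (SE 0.20, adjusted p = 0.0308). Ada, the enzyme that removes adenosine, fell by 0.61 (SE 0.15, adjusted p = 0.0320). The count was 4 without siTnks/2 replicate 1 or any single siCtrl library, with Enpp2, Entpd5 and Lrrc8a among the 4 each time. Adora1 passed without siTnks/2 replicate 1 but did not pass when any single siCtrl library was left out. P2ry1 and Ada passed in none of these fits.

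With XAV939, 6 of the 25 rose and 3 fell, against 17.4% of all genes called. Adora2a rose by 1.24 (SE 0.33, adjusted p = 0.0231), Adora1 by 0.90 (SE 0.18, adjusted p = 0.00704), Enpp2 by 0.73 (SE 0.17, adjusted p = 0.0132) and Entpd3, an enzyme that cuts ATP outside the cell, by 0.58 (SE 0.18, adjusted p = 0.0394). Adora2b, the low-affinity adenosine receptor, fell by 1.25 (SE 0.23, adjusted p = 0.00387), P2ry2 by 0.70 (SE 0.16, adjusted p = 0.0112) and Nt5e (CD73, which makes adenosine from AMP) by 0.65 (SE 0.16, adjusted p = 0.0207). With the replicate block 16 of the 25 passed, and without DMSO replicate 1 only Adora1, Adora2b, Enpp2 and P2ry2 did.

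With IWR-1, 4 of the 25 rose and 11 fell, against 36.4% of all genes called. Entpd3 rose by 2.99 (SE 0.17, adjusted p = 1.6e-06), from 2.19 ± 0.249 to 17.8 ± 1.06 CPM, and Enpp2 by 2.04 (SE 0.17, adjusted p = 1.3e-05). Alpl, the phosphatase of mineralizing cartilage, rose by 0.66 (SE 0.15, adjusted p = 0.00542) and Entpd5 by 0.34 (SE 0.12, adjusted p = 0.0472). P2ry6, a UDP receptor, fell by 3.06 (SE 0.22, adjusted p = 4.6e-06), from 12.7 ± 2.55 to 1.46 ± 0.119 CPM. Adora2b fell by 1.88 (SE 0.24, adjusted p = 0.000128), P2ry2 by 1.22 (SE 0.16, adjusted p = 0.000163) and Entpd1 (CD39, which cuts ATP and ADP) by 1.19 (SE 0.32, adjusted p = 0.00848). Without IWR-1 replicate 2, 9 of the 25 passed.

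Enpp2 rose in all 3 treatments, whereas P2ry2 and Nt5e rose in the knockdown and fell with each inhibitor. In the knockdown Nt5e did not pass when any single siCtrl library or siTnks/2 replicate 1 was left out, and P2ry2 did not without siTnks/2 replicate 1. With XAV939, Nt5e did not pass without DMSO replicate 1 or 3 or XAV939 replicate 1 or 2. Nt5e was at 249 ± 24.1 CPM in siCtrl and 359 ± 63.4 in siTnks/2, and at 474 ± 65.2 in DMSO, 302 ± 70.0 with XAV939 and 225 ± 17.6 with IWR-1. P2ry2 was at 2.07 ± 0.389 and 4.79 ± 0.740 CPM in the siRNA set, and at 7.36 ± 0.710, 4.52 ± 0.690 and 3.13 ± 0.195 in the drug set. Between the inhibitors, Entpd3 was higher with IWR-1 by a log2 difference of 2.41 (adjusted p = 3.3e-05), Enpp2 by 1.30 (adjusted p = 0.000692) and Entpd5 by 0.54 (adjusted p = 0.0102). P2ry6 was lower with IWR-1 by a log2 difference of -2.47 (adjusted p = 7.7e-05), Adora1 by -0.99 (adjusted p = 0.00432), P2rx7, the ATP-gated channel tied to pannexin opening, by -0.88 (adjusted p = 0.00197) and Slc29a1, a nucleoside carrier, by -0.73 (adjusted p = 0.00116). In that comparison 9 of the 25 passed, 3 higher and 6 lower, against 17.6% of all genes, and 14 with the replicate block.

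**Figure D4:**
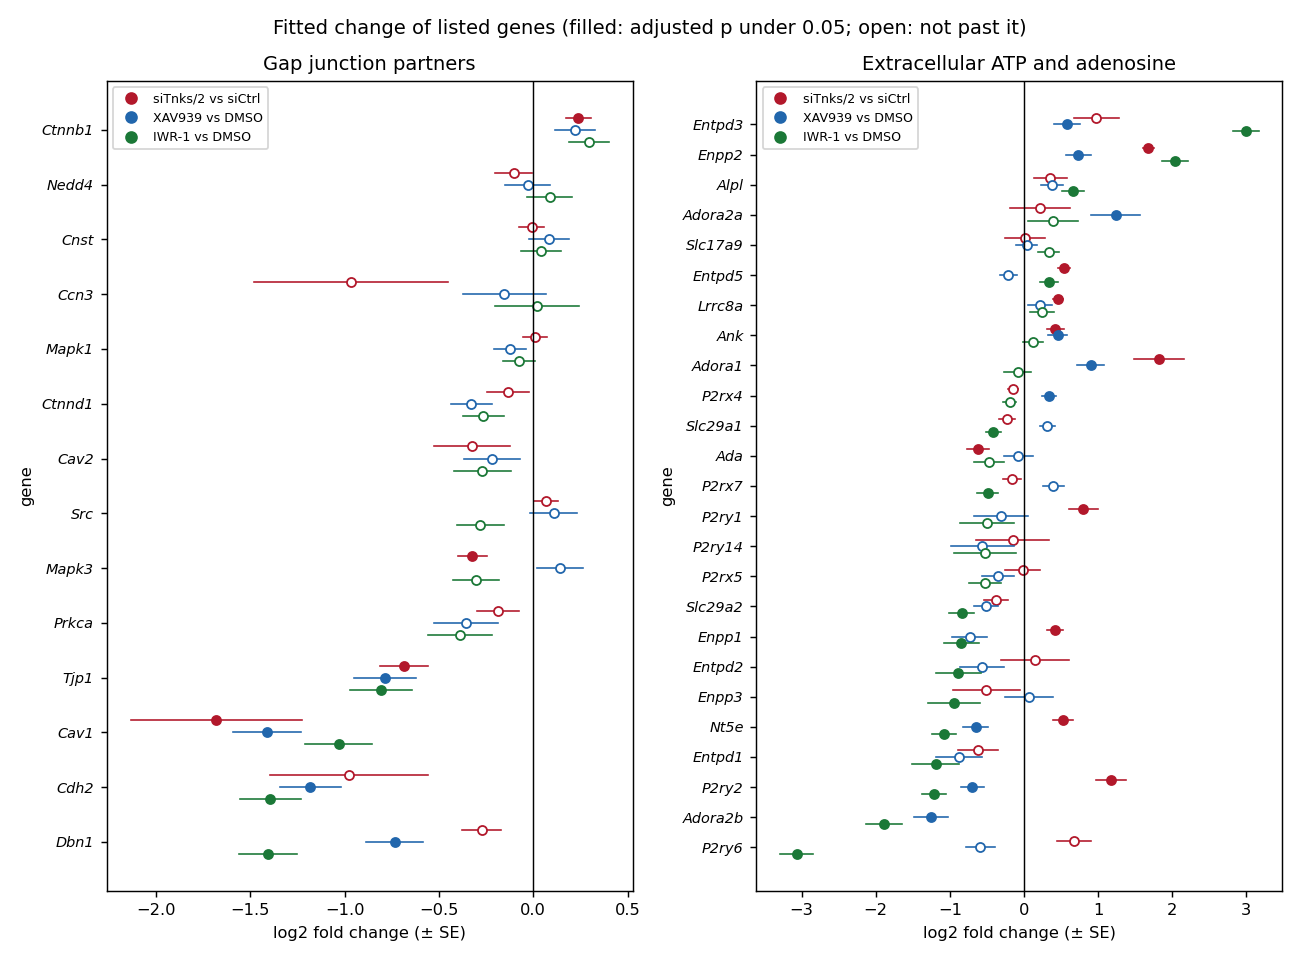
Log2 fold change with its standard error of 14 of the gap junction partners tested (left) and of the ATP and adenosine genes (right) in the knockdown, XAV939 and IWR-1 against their controls; filled points passed an adjusted p of 0.05. Tjp1 and Cav1 lie below 0 in all 3 treatments, Entpd3 and P2ry6 lie furthest from 0 with IWR-1, and P2ry2 and Nt5e lie on opposite sides in the knockdown and the inhibitors.

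For each gene, the 3 tested genes most like it over the 9 drug libraries were found by Pearson's r of log2 CPM, as a description; the 9 libraries share 3 treatment groups. Gjc3 was most like F8 (r = 0.99), the clotting factor VIII gene, Dus4l (0.99) and Prtg (0.99), and over the 6 siRNA libraries the same pairs had r of 0.97, 0.72 and 0.97. Panx3 was most like Telo2 (0.996), Spns1 (0.99) and Rcsd1 (0.99), but in the siRNA set Telo2 and Spns1 ran against it, with r of -0.95 and -0.66, and Rcsd1 had 0.63. Gja1 was most like Crem (0.997), a cyclic AMP-responsive transcription factor, Ppp1cc (0.99) and Il11 (0.99), with 0.60, -0.03 and -0.18 in the siRNA set. Gjb2 was most like the chemokine gene Cxcl10 (0.99), Rasgrp3 (0.98) and Reep1 (0.98), and had no siRNA value. Gjc1 was most like Ttk (0.95), Zfp764 (0.93) and Rrm2 (0.93), of which the cell-cycle genes Ttk and Rrm2 kept an r of 0.99 and 0.97 in the siRNA set. Panx1 was most like Abcg2 (0.92), Borcs7 (0.92) and Syn3 (0.91), with 0.91, -0.42 and 0.32 there.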

How the data were processed

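Raw read counts per gene were deposited by the authors as one table for the siRNA set and one for the drug set. Per the labels and methods, reads from stranded TruSeq mRNA libraries were trimmed with Trimmomatic 0.32, aligned to mm10 with TopHat2 2.0.13 and counted with HTSeq 0.6.1p1; the annotation and strand setting of the counting are not given in the sources used here. Of 24134 Entrez IDs in each table, 24051 matched a RefSeq symbol (GRCm38.p6).

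Each table was fitted separately and whole in edgeR 4.0.16 (R 4.3.3): filterByExpr, TMM scaling, glmQLFit and glmQLFTest, with Benjamini-Hochberg adjustment over all genes tested and a threshold of 0.05. The drug fit held all 3 groups. CPM values use the TMM-scaled library sizes. Fold changes used a prior count of 2. Standard errors came from a second fit of the same model with a smaller prior count. The 95% intervals were centred on the fold changes given, with widths from those standard errors. Levels per kilobase used GENCODE exon lengths (GRCm38). Counts per library limit precision, and intervals cover the spread between libraries only. DESeq2 1.42.0, other scalings and filters, a replicate block, a fit of only the 2 groups compared and leaving out each library were alternatives.

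Same-numbered libraries deviated together from their group means, with every r over 0.1. It was 0.42 to 0.52 over the 3 siRNA pairs and 0.14 to 0.55 over the 9 drug pairs. Differently numbered libraries had r of -0.41 to 0.10 and -0.49 to 0.32, so DMSO replicate 2 correlated better with replicate 1 of each inhibitor (0.32) than with their replicate 2 (0.14 and 0.24). The labels give only the numbers. These may pair the samples, but the main fit had no replicate block. Its fold changes, intervals and calls leave any such pairing out, and the block was fitted only as an alternative. The scripts were tested on simulated data. The genes and the lists were chosen with earlier results of these data known. The text names the 6 genes, Tnks and Tnks2, and from each list every gene past the threshold where these are 8 or fewer, otherwise the 4 largest changes each way, plus genes named as background or as sensitive to a setting. Nov and Ankh were matched as Ccn3 and Ank. Some listed genes enter the counts and sums but are not reported here by name.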

Additional observations from a re-analysis of the deposited data

How the results depend on the processing

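With the replicate block the genes called numbered 4727 in the knockdown, 4630 with XAV939 and 4258 between the inhibitors. The main fit called 2459, 2416 and 2442. The block changed no other call of the 6 genes than those of Panx1 and Gja1 given above. A fit of only the XAV939 and DMSO libraries called 1569 genes. Leaving out 1 library at a time, the genes called ranged from 608 (without siCtrl replicate 1) to 2868 in the knockdown, from 1322 (without DMSO replicate 1) to 2484 with XAV939 and from 1343 (without IWR-1 replicate 2) to 3044 between the inhibitors. The calls among the 6 genes ranged from 0 to 2 in the knockdown, from 2 to 4 with XAV939 and from 1 to 3 between the inhibitors, and stayed at 4 with IWR-1. The cause of these ranges was not tested.

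Only fold changes near 0 changed sign, each on leaving out a library: Gja1 in the knockdown ranged from -0.10 to 0.046 (0.03 without siTnks/2 replicate 2), Gjc1 with XAV939 from -0.039 to 0.22, and Panx1 from -0.10 to 0.20 with XAV939 (-0.03 without DMSO replicate 3), from -0.18 to 0.051 with IWR-1 and from -0.28 to 0.018 between the inhibitors. Of 348 fold changes under alternatives, 316 kept their direction and side of the threshold. Gjb2 rests on 11 to 56 counts a library in the drug set, and Gjc3 on 15 to 49 in DMSO, which limits their precision.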
